A study of Mus musculus with 4 samples.

Results

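The genes described here encode 10 small proteins with which neurons sense, buffer or pass on calcium: Calb2, Pvalb, Hpca, Hpcal1, Hpcal4, Vsnl1, Ncald, Caln1, Nrgn and Pcp4. They were taken by symbol, and 9 of the 10 were found among the 19465 genes of the count tables. Vsnl1 was not analysed here. UMI (counts of single captured molecules) came from a capture array laid under 4 brain sections of 5 µm, 2 from control mice and 2 from rNLS8 mice. Mice of both groups were 11 weeks old, and all 4 sections were taken 3 weeks into a withdrawal of doxycycline. In rNLS8 mice that withdrawal releases a human TDP-43 transgene without its nuclear import signal in neurons, through a transactivator under the neurofilament heavy chain promoter, which models the cytoplasmic TDP-43 of amyotrophic lateral sclerosis. The labels do not give the transgenes of the control mice. The question was which of these genes differ between the groups, and whether they do so alike in every region and cortical layer.

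Calcium entering an active neuron is bound within milliseconds by buffers such as parvalbumin and calretinin, and by sensors that change shape and act on channels, enzymes and receptors. The hippocalcin family (Hpca, Hpcal1, Hpcal4, Ncald, Vsnl1) are sensors with a fatty acid tail that calcium exposes, which moves them to the membrane. Nrgn and Pcp4 do not sense calcium themselves; they hold calmodulin, the general calcium sensor, and set how readily it is handed to its kinases and to calcineurin.

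In rNLS8 sections the sensor Hpcal4 and the calmodulin holder Nrgn passed the test as lower in the upper layers, layer 5 and layer 6 of the cortex and in the claustrum. Hpcal4 also passed in the cortex as a whole and over fibre tracts. Pcp4 passed as lower in layers 5 and 6 and in the striatum, and Hpcal1 in the upper layers. All 4 had negative log2 fold changes in every region fitted, whether called or not. Most of the layer calls, and that of Pcp4 in the striatum, were lost when an rNLS8 section was left out. Hpca, the founding member of the sensor family, passed the test in no region, and nor did Ncald, Caln1, Pvalb or Calb2. The 4 genes that fell are encoded on different chromosomes (GRCm38.p6): Hpcal4 on chromosome 4 (123183504 to 123194699), Hpcal1 on chromosome 12 (17690750 to 17791944), Nrgn on chromosome 9 (37544493 to 37552745) and Pcp4 on chromosome 16 (96467606 to 96525793).

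The promoter windows of these 4 genes are shown because their RNA was lower in at least 1 cortical layer, so that the windows can be read side by side. Each runs from 250 bases before to 50 after a RefSeq transcript start, 5′ to 3′ on the gene's strand, and capitals mark GGGCGG on either strand (CCGCCC on the other). The windows are chr4:123183254-123183553 on the plus strand for Hpcal4, chr12:17690559-17690858 on the plus strand for Hpcal1, chr9:37552696-37552995 on the minus strand for Nrgn and chr16:96467356-96467655 on the plus strand for Pcp4 (RefSeq, GRCm38.p6).
Hpcal4: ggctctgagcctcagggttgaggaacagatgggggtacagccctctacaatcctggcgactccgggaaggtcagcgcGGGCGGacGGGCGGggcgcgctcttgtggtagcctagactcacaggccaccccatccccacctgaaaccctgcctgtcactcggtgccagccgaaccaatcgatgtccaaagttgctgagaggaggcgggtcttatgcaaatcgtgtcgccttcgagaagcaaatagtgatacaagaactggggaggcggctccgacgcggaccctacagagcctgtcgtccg
Hpcal1: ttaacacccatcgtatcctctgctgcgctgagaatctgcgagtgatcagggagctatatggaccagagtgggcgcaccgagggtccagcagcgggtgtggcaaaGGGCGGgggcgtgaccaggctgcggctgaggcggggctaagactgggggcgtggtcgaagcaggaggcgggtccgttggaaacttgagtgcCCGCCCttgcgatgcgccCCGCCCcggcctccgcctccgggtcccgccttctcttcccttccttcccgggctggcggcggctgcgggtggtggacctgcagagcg
Nrgn: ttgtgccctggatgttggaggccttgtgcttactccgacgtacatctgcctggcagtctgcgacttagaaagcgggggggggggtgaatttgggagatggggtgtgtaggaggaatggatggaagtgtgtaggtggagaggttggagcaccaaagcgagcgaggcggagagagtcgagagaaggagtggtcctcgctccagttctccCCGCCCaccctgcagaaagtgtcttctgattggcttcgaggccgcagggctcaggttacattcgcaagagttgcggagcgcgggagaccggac
Pcp4: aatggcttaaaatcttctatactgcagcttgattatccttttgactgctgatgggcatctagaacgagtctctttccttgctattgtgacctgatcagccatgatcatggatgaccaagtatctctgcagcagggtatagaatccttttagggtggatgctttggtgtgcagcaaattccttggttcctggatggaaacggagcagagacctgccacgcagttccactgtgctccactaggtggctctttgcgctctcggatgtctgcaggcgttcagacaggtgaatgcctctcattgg
GGGCGG, the core of the GC box, occurs 3 times in the Hpcal1 window, 2 times in that of Hpcal4, 1 time in that of Nrgn and 0 times in that of Pcp4. It was present in 35.7% of the 32851 windows of the reference. The TATA box core TATAAA (13.6% of all windows) and the cyclic AMP response element TGACGTCA (1.79%) were in none of the 4. The bases of the windows were 61.7% G or C for Hpcal4, 68.3% for Hpcal1, 59.3% for Nrgn and 48.7% for Pcp4. Hpca has 3 windows in the reference, with 1, 4 and 0 copies of GGGCGG, so a gene that did not pass the test holds the motif as well. A match in these letters is a description and not a binding site.

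The sections held 19064969 and 23869254 UMI in control and 28056089 and 17627577 UMI in rNLS8, over 2655 to 3810 spots with at least 500 UMI each. A spot covers several cells, so a lower value can reflect fewer cells of a type or less RNA per cell, and the 2 cannot be told apart. The labels name replicate 1 of each group as female and replicate 2 as male. Yet Y-linked genes held 136.7 CPM (UMI scaled to the size of each library) in the library labelled rNLS8 replicate 1. They held 0 in control replicate 1, 107.3 CPM in control replicate 2 and 139.1 CPM in rNLS8 replicate 2. By these counts only control replicate 1 lacks Y-linked RNA, so sex is unbalanced between the groups, and its part was not tested. The labels also do not say that each section is a separate animal, so p-values speak for these sections only. In edgeR and limma the spread of each gene is drawn toward that of all genes. rNLS8 replicate 2 held 126 spots of the group named striatum against 497 to 544 in the other sections. Regions are groups of spots with similar expression, clustered without the calcium genes and named by marker genes: 11 of 13 upper-layer markers, 8 of 11 detected layer 5 markers and 12 of 12 layer 6 markers were above the mean of all clusters in the group named for them. The layer 5 group is the least sharply marked, with Fezf2, Pvalb, Cst7 and Cxcl10 among its leading genes. Cortex pools the upper-layer, layer 5 and layer 6 groups with an unnamed cluster of 290 spots at the lower edge of the section. In that cluster 7 of 12 markers of cortex of all layers were above the mean of all clusters. Another unnamed cluster, of 353 spots and with 12 of 12 of these markers above it, is not in the cortex. The largest unnamed cluster held 2505 spots, which count only in whole sections. The group named meninges and vessels is mixed. Its larger cluster, of 808 spots, stood above the mean of all clusters by 0.506 on the log2 scale for meningeal markers. For striatal markers it stood above by 0.451, so values of this group are not those of meninges alone. Only spots of the group named striatum are called striatal here. That leaves out an unnamed cluster of 926 spots, in which 13 of 13 striatal markers were above the mean of all clusters, with a mean lead of 1.1. This unnamed cluster held 214 and 234 spots in control and 237 and 241 in rNLS8.

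Markers of whole cell types moved as well. The 14 measured pan-neuronal genes summed to between 16630 and 17410 CPM in control cortex and to between 11850 and 12420 CPM in rNLS8 cortex, with 8 of the 14 lower without overlap and none past the test. The 18 microglial markers, of which 16 were tested and none was at 0 in all 4 cortices, summed to between 509.7 and 613.4 CPM in control and to between 1238 and 1951 CPM in rNLS8, and 4 passed the test as higher. How much of the members' differences follows these cell type differences was not tested. Scaling to the pan-neuronal sum in place of all genes moved the median log2 fold change of all genes in the cortex from 0.02 to 0.51 and the share of genes called to 26.5%, nearly all of them higher, and the members are given under that scaling where it changes their direction or call.

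Within the cortex the members separated into those that were lower in rNLS8 and those that overlapped with control. An adjusted p under 0.05 in edgeR's quasi-likelihood test with Benjamini-Hochberg adjustment over all genes was reached by 1 of the 9 members, Hpcal4, against 0.75% of the 12130 genes tested. The members' median log2 fold change was -0.46, and that of all genes 0.02. For 5 members every rNLS8 section was below every control section, as for 26.6% of all genes.

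**Figure D1:**
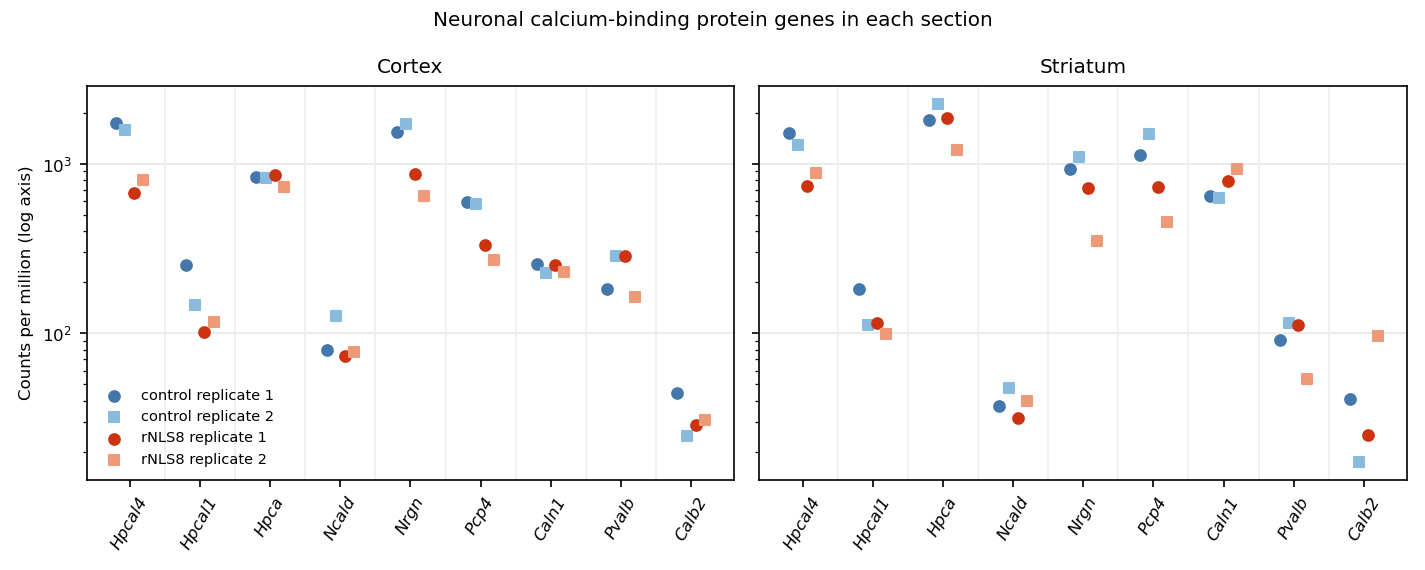
CPM of the 9 measured members (log axis) in the cortex (left) and the striatum (right), 1 point per section. In the cortex both rNLS8 points lie below both control points for Hpcal4, Hpcal1, Ncald, Nrgn and Pcp4, while Hpca, Caln1, Pvalb and Calb2 overlap.

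Among the sensors, Hpcal4, a member of the family that is enriched in brain, gave 1741 and 1589 CPM in the control cortices and 674 and 803 CPM in the rNLS8 cortices. Both rNLS8 values lie far below both control values. The mean fell from 1665 ± 108 to 738 ± 91.4 CPM (SD, n = 2 each), or to 44.3% of control, a log2 fold change of -1.17 (SE 0.158, adjusted p = 0.0474 in edgeR). Without rNLS8 replicate 1, whose Y-linked counts go against its label, the value was -1.05 (adjusted p = 0.249), and without rNLS8 replicate 2 it was -1.31 (adjusted p = 0.273). Hpcal4 was lower in each of those fits, and the call was lost in both.

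Hpcal1, the hippocalcin relative also known as VILIP-3, gave 252 and 146 CPM in control and 102 and 116 CPM in rNLS8 cortex. The groups do not overlap, but the control sections differ from each other by more than the rNLS8 sections differ from the lower of them. The log2 fold change was -0.86 (SE 0.262, adjusted p = 0.140 in edgeR), and -0.42 (adjusted p = 0.0957) without control replicate 1. Hpca, named for its abundance in hippocampal neurons, where it takes part in long-term depression and afterhyperpolarization, gave 833 and 822 CPM in control and 858 and 725 CPM in rNLS8. One rNLS8 section was above both controls and the other below both. Ncald, a sensor that binds clathrin and actin, gave 79.8 and 126 CPM in control and 73.2 and 77.1 CPM in rNLS8, with a log2 fold change of -0.46 (SE 0.227, adjusted p = 0.305 in edgeR), which became 0.03 under pan-neuronal scaling.

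Because Hpca and Hpcal4 come from the same spots, their ratio does not depend on how a library is scaled. The log2 ratio of Hpcal4 to Hpca counts was 1.06 and 0.95 in control cortex and -0.35 and 0.15 in rNLS8 cortex. The groups were apart by -1.11, in the direction of less Hpcal4 per Hpca, with p = 0.333 in a two-sided exact permutation test, the smallest that 2 sections against 2 allow. Since the detection of each gene differs, only the difference between groups can be read from this ratio. In the striatum the same ratio was -0.24 and -0.81 in control and -1.35 and -0.46 in rNLS8, and the groups overlapped.

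**Figure D2:**
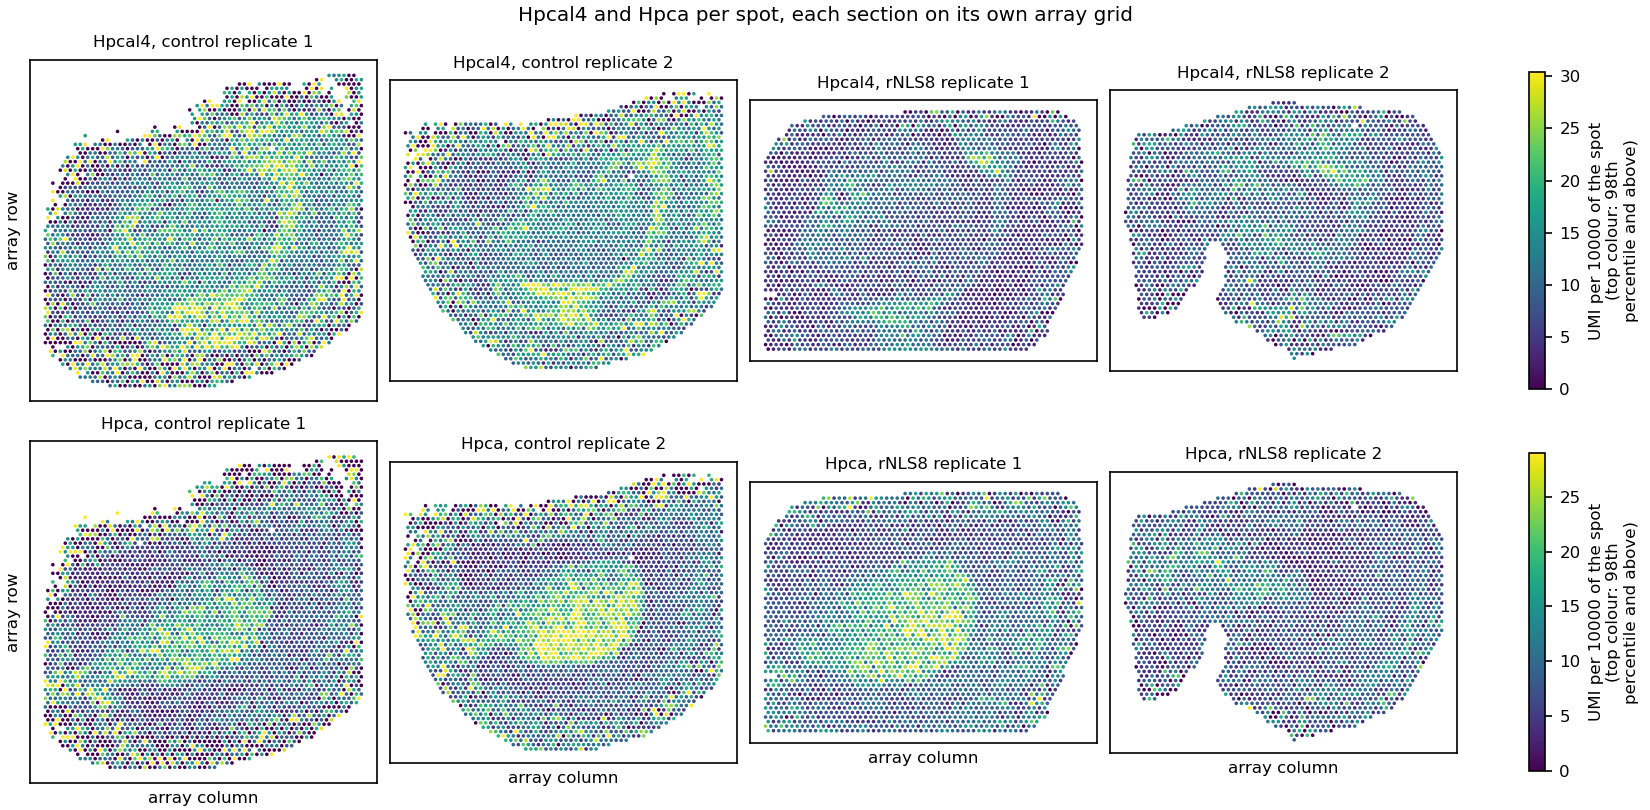
Hpcal4 (top) and Hpca (bottom) in UMI per 10000 UMI of each spot, on the array grid of each section, with 1 colour scale per gene. Hpcal4 is bright in a curved band and a patch beneath it in both controls and dimmer over most of both rNLS8 sections. The bright central field of Hpca, the striatum, is seen in 3 sections and faint in rNLS8 replicate 2, which holds 126 spots of the group named striatum.

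Both calmodulin holders were below control in each rNLS8 cortex, and both narrowly missed the threshold. Nrgn, a postsynaptic protein of excitatory neurons and a protein kinase C substrate, gave 1532 and 1712 CPM in control and 870 and 642 CPM in rNLS8. The rNLS8 mean was 46.6% of control, and the log2 fold change was -1.10 (SE 0.189, adjusted p = 0.0559 in edgeR). Pcp4, which speeds the exchange of calcium on calmodulin, gave 591 and 580 CPM in control and 329 and 268 CPM in rNLS8. The 2 control values were nearly the same, the rNLS8 mean was 51.0% of control, and the log2 fold change was -0.97 (SE 0.157, adjusted p = 0.0531 in edgeR). Under pan-neuronal scaling both passed the test, at -0.62 (adjusted p = 0.0415) for Nrgn and -0.49 (adjusted p = 0.0452) for Pcp4.

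The remaining members overlapped between groups in the cortex. Caln1, a calneuron that inhibits a Golgi lipid kinase at resting calcium, gave 256 and 227 CPM in control and 253 and 230 CPM in rNLS8. Its log2 fold change was 0.00 (SE 0.145). Under pan-neuronal scaling it was 0.49 (adjusted p = 0.0389 in edgeR), close to the 0.51 to which that scaling moves the median of all genes. It was also called under that scaling in layer 5 (0.47, adjusted p = 0.0433, against a median of 0.58 over all genes) and layer 6 (0.53, adjusted p = 0.0466, against a median of 0.41). Pvalb, the buffer of fast-spiking interneurons, gave 183 and 286 CPM in control and 287 and 163 CPM in rNLS8. The spread within each group exceeded the difference between them, and none of 14 genes listed as partners of parvalbumin cells passed the test in the cortex (median log2 fold change -0.17). Calb2, or calretinin, the buffer of another interneuron class, gave 44.1 and 24.6 CPM in control and 28.8 and 30.75 CPM in rNLS8, from 176 to 262 UMI per section. The log2 fold changes of Hpca, Pvalb and Calb2 were -0.07, -0.06 and -0.20, and turned to 0.42, 0.41 and 0.29 under pan-neuronal scaling, with no call under either.

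Across the layers, 3 of the 9 members were called lower in the upper layers, against 2.72% of 10172 genes. In layer 5 again 3 were called lower, against 2.09% of 10816 genes, and 3 in layer 6, against 1.5% of 10114 genes. No member was called higher in any layer. Beside these counts stand the microglial markers, of which 9, 11 and 8 of the 16 tested were called higher in the upper layers, layer 5 and layer 6, and the pan-neuronal genes, of which 2, 3 and 1 of 14 were called lower in the same layers. The part of these shifts in the members' values was not tested.

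Hpcal4 gave 1738 and 1509 CPM in control and 485 and 720 CPM in rNLS8 in the upper layers (log2 fold change -1.43, SE 0.213, adjusted p = 0.00347 in edgeR). In layer 5 the values were 1492 and 1367 CPM against 521 and 586 CPM (-1.37, SE 0.163, adjusted p = 0.00791 in edgeR). Layer 6 held the highest Hpcal4 of the cortical layers in both groups, with 2248 and 2166 CPM in control and 1095 and 1238 CPM in rNLS8, and fell by 0.92 on the log2 scale (SE 0.140, adjusted p = 0.0114 in edgeR). Control and rNLS8 values were apart in all 3 layers.

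Nrgn was highest in the upper layers and lowest in layer 6 in all 4 sections. Its control values were 2084 and 2296 CPM in the upper layers, 1588 and 1686 CPM in layer 5 and 1282 and 1505 CPM in layer 6. In rNLS8 they were 1204 and 837 CPM, 839 and 623 CPM, and 759 and 587 CPM. The log2 fold changes in the same order of layers were -1.10 (SE 0.204), -1.16 (SE 0.187) and -1.05 (SE 0.166) with adjusted p of 0.0109, 0.0211 and 0.0119 in edgeR.

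Pcp4 marks deep layers, and its control values were 230 and 288 CPM in the upper layers against 727 and 713 CPM in layer 5 and 717 and 781 CPM in layer 6. In rNLS8 they were 192 and 115.5 CPM, 363 and 247 CPM, and 447 and 435.5 CPM. In layer 5 it fell to 42.4% of control (log2 fold change -1.24, SE 0.203, adjusted p = 0.0221 in edgeR), and in layer 6 to 58.9% (-0.76, SE 0.143, adjusted p = 0.0219 in edgeR). The upper layers missed the threshold, at -0.75 (SE 0.241, adjusted p = 0.102 in edgeR).

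Hpcal1 was called in the upper layers only among the layers, where it gave 320 and 151 CPM in control and 91.8 and 91.35 CPM in rNLS8 (log2 fold change -1.35, SE 0.291, adjusted p = 0.0217 in edgeR). The rNLS8 sections were nearly the same, and the control sections were far apart. Without control replicate 1 the value was -0.72 (adjusted p = 0.00293). In layer 6 the groups overlapped, with 222 and 132.5 CPM against 99.9 and 146 CPM.

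**Figure D3:**
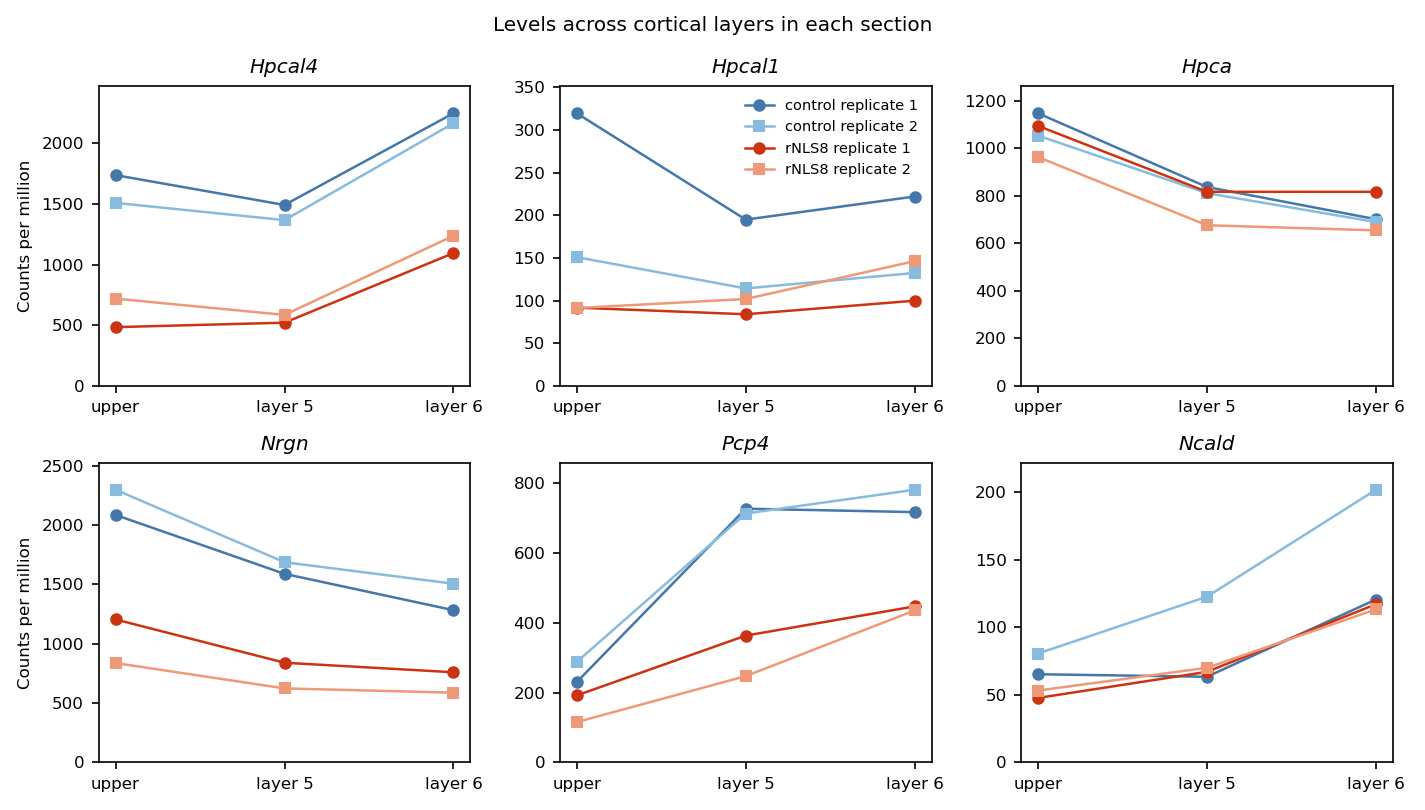
CPM of 6 members in the upper layers, layer 5 and layer 6, with 1 line per section. The rNLS8 lines of Hpcal4 and Nrgn lie below the control lines at every layer, those of Pcp4 part most at layer 5, and those of Hpcal1 lie below control in the upper layers and overlap in layer 6.

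Most of these layer calls were lost when an rNLS8 section was left out, while that of Hpcal1 in the upper layers was kept. Without rNLS8 replicate 1 the calls that remained were Pcp4 in layer 5 (adjusted p = 0.0334), Hpcal1 in the upper layers (adjusted p = 0.0476) and Nrgn in layer 6 (adjusted p = 0.0113). Without rNLS8 replicate 2 those that remained were Hpcal4 (adjusted p = 0.00547) and Hpcal1 (adjusted p = 0.0402) in the upper layers. Under pan-neuronal scaling Hpcal4 and Nrgn were called in all 3 layers, while the calls of Hpcal1 in the upper layers (-0.91, adjusted p = 0.0545) and of Pcp4 in layer 6 (-0.37, adjusted p = 0.0910) were lost.

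Whether the layers differed in their response was tested directly, with section as a block. Hpcal4 fell further in the upper layers than in layer 6, by a difference of -0.50 on the log2 scale (SE 0.0856, adjusted p = 9.59e-06 in edgeR), and so did Hpcal1 (-0.75, SE 0.148, adjusted p = 0.000467 in edgeR). These were 2 of the 9 members, against 0.425% of the 10597 genes tested. In this comparison the estimate and SE give the p-values of a normal distribution. The p-values thus rest on spread pooled over genes, not on each gene's own spread between sections. Between the upper layers and layer 5, Hpcal1 again fell further in the upper layers (-0.60, SE 0.139, adjusted p = 0.0256 in edgeR), while Pcp4 fell further in layer 5 (0.45, SE 0.110, adjusted p = 0.0348 in edgeR). Here too 2 members were called, against 0.602% of 10958 genes. For Nrgn these differences were -0.03 (SE 0.0859) and 0.04 (SE 0.0684). Without rNLS8 replicate 1, the Hpcal4 difference was -0.35 (adjusted p = 0.167) and that of Pcp4 0.38 (adjusted p = 0.268), while those of Hpcal1 kept their call. Without control replicate 1, Hpcal1 lost both calls (-0.60, adjusted p = 0.213, and -0.41, adjusted p = 0.567) and Pcp4 lost its own (0.32, adjusted p = 0.445). Without rNLS8 replicate 2, Hpcal1 lost both as well (-0.52, adjusted p = 0.380, and -0.43, adjusted p = 0.364). None of the 4 differences was called when layers were assigned by marker score in place of clusters, and that of Pcp4 between the upper layers and layer 5 was then 0.

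Outside the cortical layers, the claustrum and endopiriform region held the highest Hpcal4 of the named regions, 2406 and 2587 CPM in control and 1349 and 1138 CPM in rNLS8. Hpcal4 fell there by 1.00 on the log2 scale (SE 0.136, adjusted p = 0.00239 in edgeR), and Nrgn, at 999 and 917.5 CPM against 600 and 595 CPM, fell by 0.68 (SE 0.142, adjusted p = 0.0230 in edgeR). These 2 calls stand against 2.27% of 8490 genes. In the same region 6 of 15 microglial markers were called higher and 3 of 14 pan-neuronal genes lower, and their part in these values was not tested. Over fibre tracts Hpcal4 was called as well, with 1294 and 1241 CPM against 595 and 730 CPM (-0.94, SE 0.173, adjusted p = 0.0475 in edgeR), against 0.309% of 9380 genes. In spots of meninges and vessels, 0 of 9 members were called, against 0.145% of genes, although Hpcal4 (-0.94, adjusted p = 0.118 in edgeR) and Pcp4 (-1.10, adjusted p = 0.145 in edgeR) had values close to those elsewhere.

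The striatum is where Pcp4, Hpca and Caln1 were highest in control. Pcp4 gave 1124 and 1488 CPM in control and 724 and 455 CPM in rNLS8, without overlap, and was the 1 member called (log2 fold change -1.14, SE 0.233, adjusted p = 0.0451 in edgeR), against 1.4% of 11811 genes. That call was lost under pan-neuronal scaling (-0.88, adjusted p = 0.0823) and without rNLS8 replicate 1 (-1.53, adjusted p = 0.146) or 2 (-0.85, adjusted p = 0.619). Hpcal4 gave 1520 and 1283 CPM against 735 and 880 CPM (-0.80, adjusted p = 0.0605 in edgeR). Nrgn gave 927 and 1093 CPM against 717 and 351.5 CPM (-0.90, adjusted p = 0.162 in edgeR), the lowest value being that of the section with few striatal spots. Hpca gave 1799 and 2250 CPM against 1869 and 1209 CPM, and overlapped. Of the microglial markers 4 of 16 were called higher in the striatum, and their part in these values was not tested.

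Caln1 in the striatum gave 642 and 627 CPM in control and 789 and 924 CPM in rNLS8, so both rNLS8 sections were above both controls. Its log2 fold change was 0.43 (SE 0.161, adjusted p = 0.248 in edgeR). Calb2 there ranged from 17.4 to 95.95 CPM, with the highest value in rNLS8 replicate 2 and 113 to 172 UMI per section. Between cortex and striatum, 0 members differed in their response past the threshold, against 0.408% of 12499 genes, and 5 of the 9 had an unadjusted p under 0.05, as had 1147 of all genes tested. The nearest was Hpcal4, whose log2 fold change in cortex minus that in striatum was -0.41 (SE 0.101, adjusted p = 0.0882 in edgeR).

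Among the 8 regions and layers with at least 50 spots in every section, the basal forebrain and hypothalamus group held the highest Calb2 and Hpcal1. Calb2 gave 449 and 217 CPM in control and 159.5 and 101 CPM in rNLS8, and Hpcal1 gave 547.5 and 409 CPM against 253 and 182 CPM. Both rNLS8 sections were below both controls for these and 3 other members, as for 18.8% of genes there. Caln1 and Pvalb were above both controls in both rNLS8 sections, with adjusted p = 0.907 for each in edgeR. The share of all genes above both controls there is not given here. Calb2 and Hpcal1 had log2 fold changes of -1.29 (SE 0.335, adjusted p = 0.907 in edgeR) and -1.10 (SE 0.257, adjusted p = 0.699 in edgeR). Neither passed, in a region where 0 members and 0.0102% of 9852 genes did. rNLS8 replicate 2 had 55 spots there against 219 to 270 in the other sections, and whether the regions match in level was not tested. The markers that name this group are not specific to it. Of these, 10 of 12 were above the mean of all clusters there, with a mean lead of 0.7 on the log2 scale. In the lateral septum cluster 11 of 12 were above it, with a mean lead of 1.18.

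**Figure D4:**
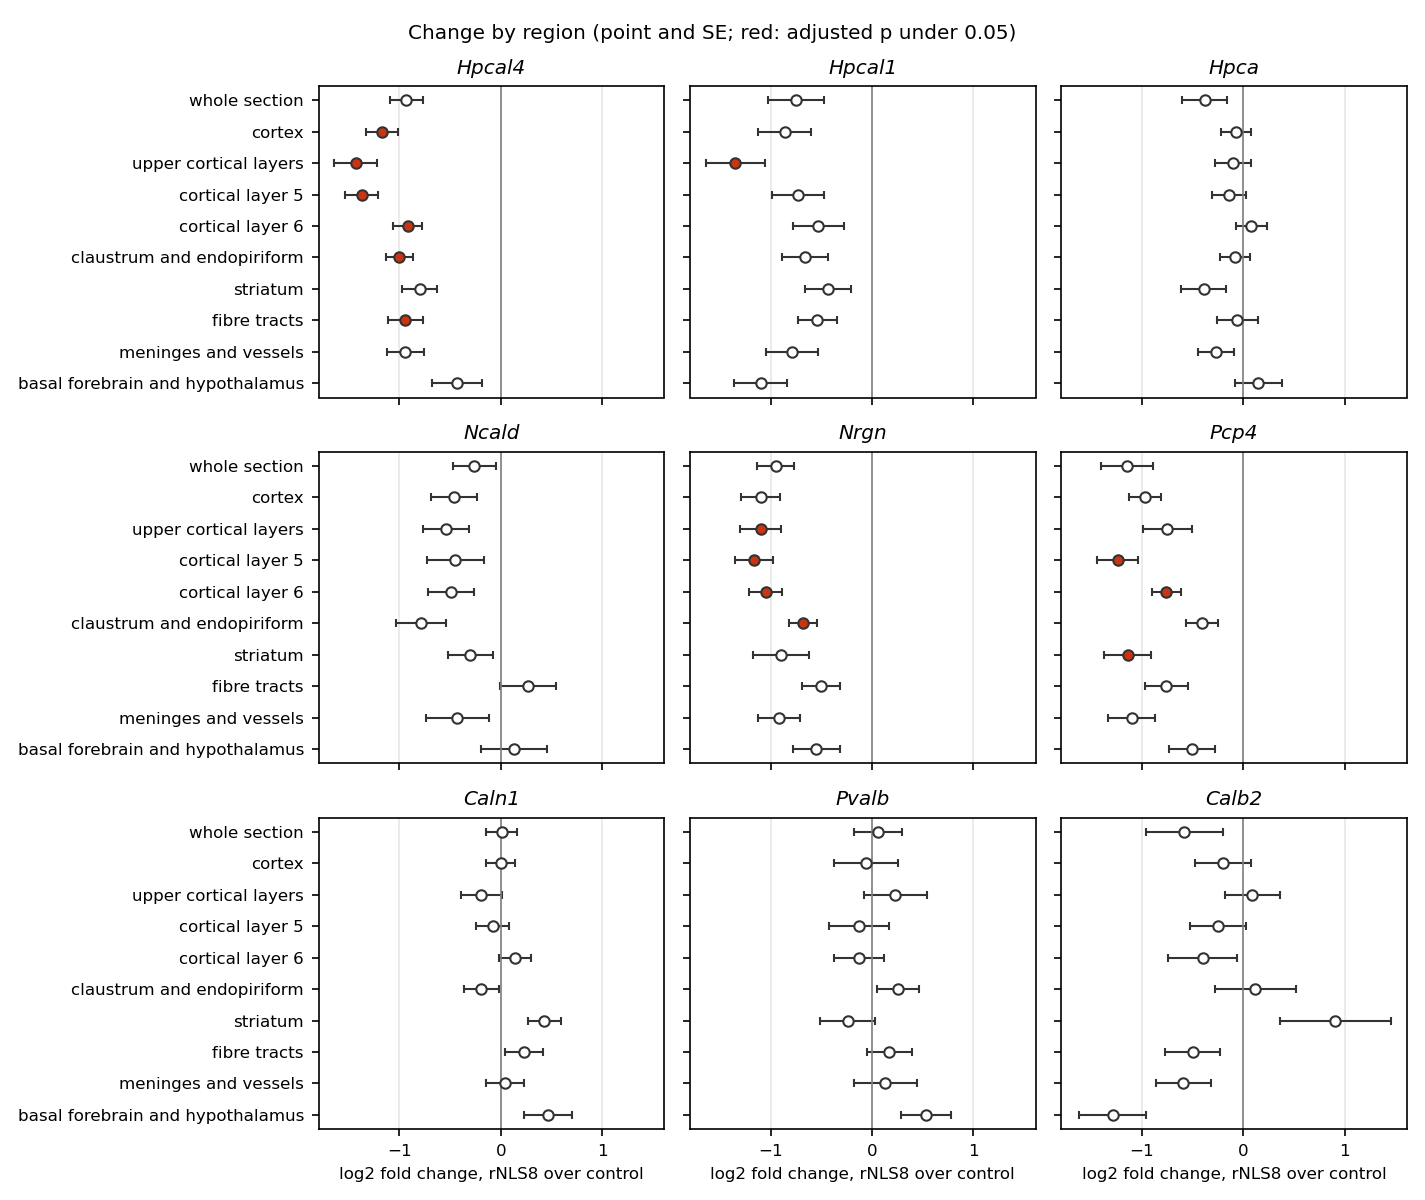
Log2 fold change of rNLS8 over control for each member in the whole section and 9 regions or layers, as points with the standard error, where red points have an adjusted p under 0.05 in edgeR. All red points lie to the left of 0, for Hpcal4 in 6 comparisons, Nrgn in 4, Pcp4 in 3 and Hpcal1 in 1.

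Summed over whole sections, 0 of 9 members were called, as were 0% of 13444 genes in edgeR, of which 2093 had an unadjusted p under 0.05. DESeq2, run as an alternative, called Hpcal4, Nrgn and Pcp4 as lower, and so did edgeR without its filter on low counts. The share of all genes called rose as well, to 4.05% with DESeq2 and 1.43% without the filter. Hpcal4 gave 1599 and 1419 CPM in control and 743 and 845.5 CPM in rNLS8 (log2 fold change -0.93, SE 0.161, adjusted p = 0.167 in edgeR). Nrgn gave 1053 and 1162 CPM against 650 and 496 CPM (-0.95, adjusted p = 0.169), and Pcp4 714 and 896 CPM against 444 and 279.5 CPM (-1.15, adjusted p = 0.177). For 5 members the rNLS8 sections were below the controls, against 25.3% of all genes. With the same number of spots of each cluster drawn from every section, Hpcal4, Nrgn and Pcp4 stood at -1.02, -1.0 and -1.04.

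Each member had its own order of these 8 regions in control, which can be read within a gene but not between genes. Hpcal4 ran from claustrum (2497 ± 128 CPM, SD, n = 2) and layer 6 (2207 ± 57.7) through the upper layers (1624 ± 162), layer 5 (1430 ± 88.2) and striatum (1402 ± 167) to the basal forebrain (852 ± 53.4), and only layer 5 and striatum, and meninges and fibre tracts, overlapped their neighbours. Hpca ran from striatum (2025 ± 319 CPM) and upper layers (1100 ± 66.4) to layer 6 (695 ± 8.49) and the basal forebrain (582 ± 95.7). Caln1 was also highest in striatum (635 ± 11.0 CPM), followed by claustrum (468 ± 35.6) and the mixed group of meninges and vessels (330 ± 47.5). Layer 6, upper layers, basal forebrain, fibre tracts and layer 5 overlapped in turn between 260 and 218 CPM. Ncald was highest in layer 6 (161 ± 57.4 CPM) and lowest in the basal forebrain (38.0 ± 5.49), with every neighbour in its order overlapping. Pvalb was highest in layer 5 (328 ± 122 CPM), overlapping the upper layers (204 ± 63.1). Calb2 stood at 333 ± 164 CPM in the basal forebrain, apart from its next region, meninges and vessels, at 66.7 ± 19.7 CPM.

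The share of cortical spots with at least 1 UMI of a member was compared after thinning every spot to 3000 UMI, which left out 7, 3, 0 and 0 spots of control replicates 1 and 2 and rNLS8 replicates 1 and 2. Pcp4 was found in 72.4% (95% Wilson interval 69.3% to 75.3%) and 76.3% (73.1% to 79.3%) of control spots, and in 60.6% (57.1% to 64.1%) and 53.2% (49.8% to 56.6%) of rNLS8 spots. Hpcal1 was found in 46.2% and 33.3% against 27.0% and 27.8%, and Hpcal4 in 98.2% and 97.7% against 82.7% and 88.8%. Calb2 was found in 11.7% and 9.08% against 8.97% and 8.79%. The groups did not overlap for these 4 genes or for Nrgn, each with p = 0.333 in a two-sided exact permutation test, the smallest possible here. Such shares were not taken over all genes, and by CPM 26.6% of all genes were lower without overlap in the cortex. For Calb2 the intervals of control replicate 2 (7.2% to 11.4%) and rNLS8 replicate 1 (7.12% to 11.2%) overlapped. Before thinning the Pcp4 shares were 90.7%, 94.4%, 92.5% and 80.2%. Those of Calb2 were 22.8%, 19.2%, 25.6% and 19.3%, and the groups overlapped. Over fibre tracts, where neuronal cell bodies are sparse, the thinned Pcp4 shares were 75.5%, 75.3%, 61.8% and 50.5%, close to those of the cortex. The intervals cover counting error only.

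How tightly each member is patterned in a section can be read from Moran's I, the authors' deposited score of how alike neighbouring spots are, where 0 means no pattern. Caln1 scored 0.163 and 0.152 in control and 0.295 and 0.283 in rNLS8, a difference of 0.131 (SE 0.0203, adjusted p = 0.0704 in limma). Both rNLS8 sections were above both controls by more than the spread within groups. Calb2 went the other way, from 0.236 and 0.174 to 0.156 and 0.0782, a difference of -0.0882 (adjusted p = 0.333 in limma). Hpcal4 scored 0.188 and 0.137 in control and 0.262 and 0.202 in rNLS8. None of the 9 members was called, against 0.0316% of 6321 genes, and 2 of the 9, Caln1 and Calb2, had an unadjusted p under 0.05, as had 908 of all genes tested.

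**Figure D5:**
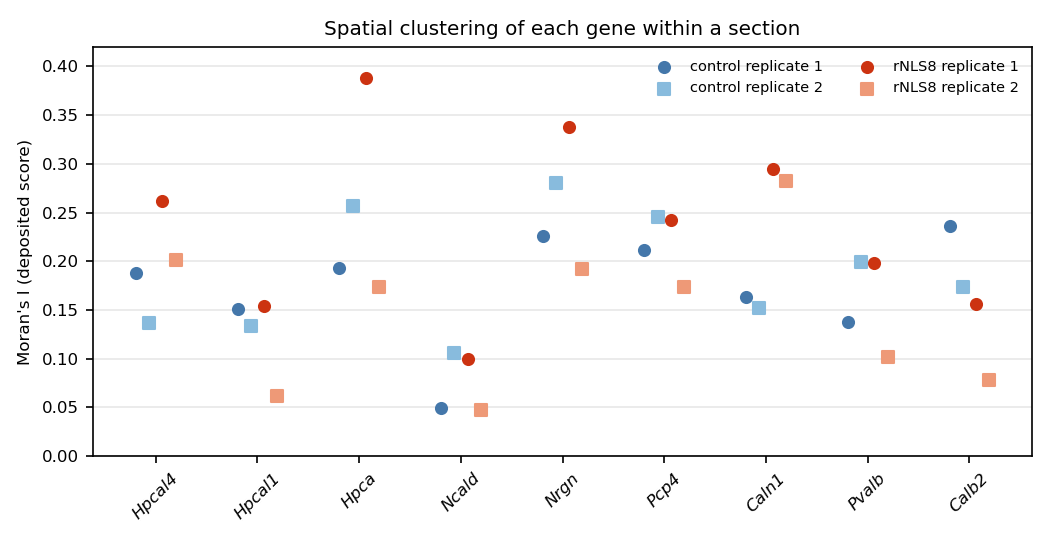
Moran's I of each member as deposited, 1 point per section. Caln1 and Hpcal4 are higher in both rNLS8 sections than in both controls, Calb2 is lower, and the other members overlap.

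The wider calcium genes were described from lists. Of 58 other EF-hand sensors and buffers (proteins built on the helix-loop-helix that holds calcium), 49 were tested in the cortex, where 3 were called lower and 1 higher, with a median log2 fold change of -0.01. Of all 12130 genes tested there 0.75% were called, 51 lower and 40 higher. Calb1, the calbindin buffer, gave 399 and 338 CPM in control and 152 and 120 CPM in rNLS8 (-1.44, SE 0.178, adjusted p = 0.0405 in edgeR). Tesc, or tescalcin, a sensor that regulates sodium-proton exchange, fell by 1.35 (adjusted p = 0.0360), and Myl4, a myosin light chain of the EF-hand superfamily, by 1.99 (adjusted p = 0.0360). Nucb1, a calcium-binding protein of the Golgi, rose from 10.8 and 16.8 CPM to 42.3 and 46.1 CPM (1.67, adjusted p = 0.0474). S100a6, of the S100 family, was next by p (1.24, adjusted p = 0.0663). In whole sections 0 of the 53 tested were called.

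Among 33 measured calmodulin-binding and calcineurin genes, 31 were tested in the cortex, with a median log2 fold change of -0.41. Of these 0 were called higher and 1 lower, against 0.75% of all genes called in either direction. That gene was Camkk2, the kinase that switches on other calmodulin kinases, at 531 and 491 CPM in control and 176 and 150 CPM in rNLS8 (-1.65, SE 0.153, adjusted p = 0.0360 in edgeR). The next by p were Adcy1, a calmodulin-stimulated adenylyl cyclase (-0.87, adjusted p = 0.0546), Camk2n1, an inhibitor of calmodulin kinase II (-0.98, adjusted p = 0.0559), Ppp3ca, the catalytic subunit of calcineurin (-0.96, adjusted p = 0.0704), and Camk4 (-1.17, adjusted p = 0.0704). In the upper layers these 5 were called as lower, and no other of the 30 genes of the list tested there, against 2.72% of all genes. They were picked by their p in the cortex, whose sums hold the upper-layer spots, so the calls are not independent. In whole sections 0 of the 32 tested were called. The pan-neuronal genes, too, had a median of -0.41 in the cortex.

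Pcp4l1, a relative of Pcp4 chosen after its values were seen, rose in the striatum, where Pcp4 fell. It gave 310 and 448 CPM in control and 883 and 736 CPM in rNLS8 (log2 fold change 1.10, SE 0.202, adjusted p = 0.0314 in edgeR). The log2 ratio of Pcp4 to Pcp4l1 counts was 1.86 and 1.73 in control and -0.29 and -0.69 in rNLS8. In the cortex it was 2.95 and 2.57 against 0.87 and 1.24, and the groups did not overlap in any of the 9 comparisons, which share their sections.

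Likeness of pattern was measured as Pearson's r of log2(CPM + 1) over 40 sums of a region in a section, against 9060 genes with a mean of at least 10 CPM. The sums come from control and rNLS8 sections alike, so r holds differences between groups as well as between regions. It is given as a description, since the sums share libraries. Among the genes most like Hpcal4 were Gpm6a (r = 0.892) and Icam5 (0.885). Nrgn was most like Robo3 (0.902), Snap25 (0.893) and Hivep2 (0.888). Pvalb was most like Kcnab3 (0.830) and Plcxd2 (0.820), and Calb2 most like Ndrg2 (0.883). Hpca was most like Gabra4 (0.851), Hpcal1 like Pnmal2 (0.884), Ncald like Nptx1 (0.846), Caln1 like Car12 (0.809) and Pcp4 like St8sia3 (0.734). Among the members themselves the highest r was 0.66, between Hpcal1 and Calb2, and the lowest was -0.62, between Calb2 and Nrgn.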

How the data were processed

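The count matrices (UMI of each gene in each tissue spot) were made with Space Ranger 2.1.0, per the file headers, on mm10, per the submitters' processing notes; the sources used here do not give the probe set. The deposited tables also hold, per the file headers, the authors' Moran's I, used here as a score of spatial pattern, its p-value and a signal of scaled mean counts, of which the last 2 were used in no result. Each raw count was used as deposited by the authors.

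The members and lists were chosen with earlier results of these data known. Spots with under 500 UMI were left out (1 to 152 per section). Spots were clustered on 1000 genes ranked by Moran's I, without the members, both calcium lists or response genes (20 principal components, 5 neighbours from each section, Leiden resolution 1.5, leidenalg 0.10.2). A first clustering split by section and depth, so neighbours were taken evenly from the sections. No doublet caller was run on spots. The 4 sections use the same array, so 1823 barcodes recur in all as positions, not as shared cells.

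Counts were summed per section and region, and tested with edgeR 4.0.16 (TMM, filterByExpr, quasi-likelihood, Benjamini-Hochberg over all genes, threshold 0.05), with section as a block for differences between regions. Claustrum, fibre tracts, meninges and basal forebrain were added with results known and have no alternatives. CPM are scaled with TMM, except those of Y-linked genes and those used for likeness of pattern, which are scaled to total UMI. Moran's I was tested with limma 3.58.1 over genes in at least 10% of spots. On simulated counts the cortex fit recovered 73 of 100 genes changed by 1 on the log2 scale and 100 of 100 changed by 2. Outside the members, genes were named from both calcium lists if called in the cortex or among the 5 smallest p there. DESeq2 1.42.0 was an alternative. Promoter windows of 7 members were matched by symbol in RefSeq (GRCm38.p6). Some genes alike in pattern to a member are not reported here.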

Additional observations from a re-analysis of the deposited data

Results flagged for a closer look

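The difference between control and rNLS8 itself differed between cortical layers for 3 members, each by the region-by-genotype test in edgeR with section as a block. For Hpcal4 the log2 fold change in the upper layers minus that in layer 6 was -0.50 (SE 0.0856, adjusted p = 9.59e-06 in edgeR). For Hpcal1 it was -0.75 (SE 0.148, adjusted p = 0.000467 in edgeR) against layer 6 and -0.60 (SE 0.139, adjusted p = 0.0256 in edgeR) against layer 5. For Pcp4 it was 0.45 against layer 5 (SE 0.110, adjusted p = 0.0348 in edgeR), that is, a deeper fall in layer 5, the layer of its higher control level. All 4 kept their direction when any 1 section was left out. All 4 lost their call with layers assigned by marker score, where the Pcp4 difference was 0. The p-values against layer 6 rest on spread pooled over genes.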

How the results depend on the processing

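Of 558 values of single members under alternatives other than leaving out a section, 486 kept direction and side of the threshold, 34 gained a call, 8 lost one and 30 turned direction. Of 360 values without 1 section, these numbers were 251, 38, 24 and 47. With 1 section left out, an arm has a single section, which is assumed to vary like the pair of the other group. The causes of the changes below were not tested. The number of sections and, for Calb2, the count of UMI limit the precision, and rNLS8 replicate 2 holds few striatal spots.

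The members called in whole sections went from 0 to 3 with DESeq2 and to 3 without the filter on low counts, with 4.05% and 1.43% of all genes called there. In the cortex they went from 1 to 4 with DESeq2, 4 under pan-neuronal scaling, 4 without the filter, 2 with RLE size factors, 2 without a cluster at the lower edge of the section (chosen after seeing the data) and 0 by marker score. The share of all genes called moved as well, from 0.75% to 7.13%, 26.5%, 4.7%, 1.31%, 1.31% and 0.2% in that order. In the striatum they went from 1 to 2 with DESeq2, 4 without the filter and 0 under pan-neuronal scaling, with 3.38%, 4.17% and 1.31% of all genes called, against 1.4%. For the difference between cortex and striatum, 3 were called without the filter, against 0, with 0.999% of all genes called against 0.408%. By marker score, 0 differed between upper layers and layer 6 and 0 between upper layers and layer 5, against 2 each. The shares of all genes called by marker score were 0.0828% and 0.0464%.

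The replicate numbers pair the labelled sexes, which the Y-linked counts go against for rNLS8 replicate 1. The deviations of same-numbered sections correlated at -0.063 over 13444 genes, and at -0.084 in the cortex. A single difference per group cannot show whether same-numbered sections share anything else. With the replicate number as a block, 0 members were called in whole sections, 4 in the cortex, 3 in layer 5, 4 in the upper layers, 3 in layer 6, 3 in the striatum and 0 for Moran's I. The block also moved the share of all genes called, to 0.58%, 5.54%, 2.06%, 6.08%, 4.62%, 2.88% and 0% in that order.

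Under pan-neuronal scaling the log2 fold change turned to 0.1 for Ncald in whole sections, to 0.29, 0.41, 0.42 and 0.03 for Calb2, Pvalb, Hpca and Ncald in the cortex, to 0.3, 0.4, 0.41, 0.1 and 0.47 for Calb2, Pvalb, Hpca, Ncald and Caln1 in layer 5, to 0.34 and 0.24 for Hpca and Caln1 in the upper layers, and to 0 and 0.25 for Pvalb in striatum and layer 6. Caln1 turned to -0.01 (DESeq2) and 0 (RLE) in whole sections, and to -0.02 (DESeq2), -0.02 (RLE) and -0.04 (without the edge cluster) in the cortex. By marker score Caln1 in layer 5 turned to 0.07 and Calb2 in the upper layers to -0.36. Differences by marker score turned to 0.02 for Ncald (cortex and striatum), to 0.22, 0.04 and -0.36 for Ncald, Nrgn and Pcp4 (upper layers and layer 6), and to -0.15, 0.02 and 0 for Calb2, Ncald and Pcp4 (upper layers and layer 5). The share of spots moved by 1.45 percentage points for Calb2 without thinning and by -0.55 for Hpca at 1500 UMI.

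Without 1 section at a time, the members called ranged from 0 to 4 in whole sections, 0 to 5 in cortex, 0 to 4 in layer 5, 1 to 5 in the upper layers, 0 to 5 in striatum, 0 to 5 in layer 6, 0 to 3 for cortex against striatum, 1 to 2 for upper layers against layer 6, 0 to 2 for upper layers against layer 5 and 0 to 2 for Moran's I. The share of all genes called in these fits ranged from 0.0144% to 13.5% in whole sections and from 0.185% (without rNLS8 replicate 2) to 28.1% (without control replicate 2) in cortex. For the other comparisons it ranged from 0.333% to 26% in layer 5, 1.04% to 23.6% in the upper layers, 0.0323% to 16.8% in striatum, 0.508% to 22% in layer 6, 0.337% to 1.4% for cortex against striatum, 0.221% to 0.269% for upper layers against layer 6, 0.23% to 0.843% for upper layers against layer 5 and 0.0475% to 0.933% for Moran's I. Among members that turned direction, Calb2 ranged from -1.08 to 0.17 in whole sections, -0.60 to 0.27 in cortex, -0.61 to 0.13 in layer 5, -0.21 to 0.36 in the upper layers, -0.18 to 1.74 in striatum and -0.90 to 0.29 in layer 6. Pvalb ranged, in the same order, from -0.27 to 0.33, -0.52 to 0.29, -0.55 to 0.27, -0.45 to 0.69, -0.95 to 0.11 and -0.59 to 0.21. Caln1 ranged from -0.14 to 0.14 in whole sections, -0.11 to 0.09 in cortex, -0.19 to 0.01 in layer 5 and -0.01 to 0.27 in layer 6, Hpca from -0.19 to 0.05 in cortex and -0.09 to 0.23 in layer 6, and Ncald from -0.85 to 0.07 in layer 5. Differences between cortex and striatum ranged from -0.36 to 0.06 for Ncald, -0.43 to 0.15 for Nrgn and -0.02 to 0.40 for Pcp4. Those between upper layers and layer 6 ranged from -0.31 to 0.12 for Ncald and -0.40 to 0.29 for Pcp4, and those between upper layers and layer 5 from -0.27 to 0.14 for Hpcal4 and -0.47 to 0.16 for Ncald. Differences in Moran's I ranged from -0.067 to 0.029 for Pvalb, -0.052 to 0.163 for Hpca, -0.081 to 0.012 for Hpcal1, -0.032 to 0.024 for Ncald, -0.061 to 0.084 for Nrgn and -0.054 to 0.015 for Pcp4.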
